A study of Homo sapiens with 8 samples.

Results

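The comparison described here was the late step of a TGFβ1 time course in MCF10A cells, from 24 h to 72 h of treatment, read as chromatin accessibility by ATAC-seq. MCF10A is an immortalised, non-tumorigenic human mammary epithelial cell line, and wild-type cells were used throughout. The cells received TGFβ1 at 5 ng/ml for 6, 24 or 72 h, refreshed every 48 h, or the solvent, 0.1% BSA in PBS. There were 2 replicates for each of the 4 conditions, hence 4 of the 8 libraries belong to the late step. The labels give the solvent cells the time 0 h, whereas a legend of the study speaks of 72 h in solvent. The deposited files hold 1 peak list per condition, called on both replicates together. No value per replicate and no depth can be read from them, so none of the differences below has a replicate check, an SD or a test.

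The 24 h list held 118433 peaks and the 72 h list 116720. Peaks sharing at least 1 bp were merged, which gave 124320 regions, whereas merging all 4 lists of the series gave 126658. Each region was given the sum of the area under the curve (AUC), the peak caller's measure of how far and how strongly the signal exceeded background, in either list. The log2 ratio of 72 h to 24 h was then centred on its median over shared regions within 3 kb of a transcription start site (TSS), called proximal here. That median was −0.11 before centring, and regions farther out are called distal. Both lists had a peak in 108195 regions. Of these, 1254 were called opened, with a centred log2 of at least 1, which is 1.16% of the shared regions. Another 479 were called closed, at −1 or below, which is 0.443%, and the other 106462 are called stable. A further 6916 regions, 5.56% of all merged regions, had a peak at 72 h only, and 9209, or 7.41%, at 24 h only. Opened and 72 h only regions together are called late-opened (8170 regions, 6.57%), closed and 24 h only regions late-closed (9688 regions, 7.79%). Regions were named after the nearest protein-coding TSS, which does not show that the gene is their target.

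TGFβ1 binds a pair of receptor kinases that phosphorylate SMAD2 and SMAD3, and these enter the nucleus with SMAD4. In epithelial cells a sustained signal is known to set off epithelial-mesenchymal transition (EMT), in which junctions and keratins give way to matrix, integrins and a contractile cytoskeleton. In ATAC-seq a transposase cuts DNA where nucleosomes leave it exposed, so peaks mark promoters and enhancers. Proteins known to act at enhancers of epithelial cells include AP-1 (JUN and FOS dimers), TEAD factors, which carry the YAP and TAZ coactivators, and RUNX factors. Because whole cultures were measured, fewer cells with an open region and a less open region in every cell cannot be told apart.

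Windows reaching 100 bp to either side of the summit are shown for 1 or 2 of the highest ranked distal regions of each class, since these carry the step at single sites. They are read from GRCh38 on the plus strand, 5′ to 3′, in lower case, with the letters of the AP-1 (TGACTCA or TGAGTCA), TEAD (GGAATG) and RUNX (TGTGGTT) motifs, on either strand, in capitals. The first pair opened, the second had a peak at 72 h only, the third closed and the last region had a peak at 24 h only. The strongest 72 h only region, nearest to GSDMC, is not shown, and its window holds none of these letters.
BRINP2 (chr1:177283078-177283278): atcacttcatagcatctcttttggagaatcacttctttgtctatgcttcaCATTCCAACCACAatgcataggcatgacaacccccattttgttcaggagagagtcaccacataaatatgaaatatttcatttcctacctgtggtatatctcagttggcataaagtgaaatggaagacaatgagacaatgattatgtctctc
RGS18 (chr1:192148330-192148530): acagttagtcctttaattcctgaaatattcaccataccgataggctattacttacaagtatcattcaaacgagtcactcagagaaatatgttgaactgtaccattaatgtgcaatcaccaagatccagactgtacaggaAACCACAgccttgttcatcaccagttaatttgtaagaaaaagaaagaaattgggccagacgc
DNER (chr2:229492197-229492397): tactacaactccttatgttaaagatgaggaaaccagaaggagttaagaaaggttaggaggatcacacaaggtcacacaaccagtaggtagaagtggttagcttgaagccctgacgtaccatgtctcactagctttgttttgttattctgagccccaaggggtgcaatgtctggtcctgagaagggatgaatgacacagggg
SSTR4 (chr20:22922006-22922206): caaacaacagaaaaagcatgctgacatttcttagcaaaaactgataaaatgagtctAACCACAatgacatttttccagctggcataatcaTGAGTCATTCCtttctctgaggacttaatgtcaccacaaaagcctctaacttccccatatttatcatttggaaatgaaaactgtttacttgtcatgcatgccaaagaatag
ANKRD62 (chr18:12086434-12086634): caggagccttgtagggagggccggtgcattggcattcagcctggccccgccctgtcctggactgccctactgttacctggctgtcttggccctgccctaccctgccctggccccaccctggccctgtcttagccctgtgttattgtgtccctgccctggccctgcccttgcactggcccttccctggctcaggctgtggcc
PKP1 (chr1:201277055-201277255): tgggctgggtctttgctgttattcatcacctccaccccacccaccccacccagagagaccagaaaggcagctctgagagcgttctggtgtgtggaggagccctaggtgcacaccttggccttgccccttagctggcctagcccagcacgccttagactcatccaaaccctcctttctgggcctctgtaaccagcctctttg
ENSG00000188897 (chr16:11534442-11534642): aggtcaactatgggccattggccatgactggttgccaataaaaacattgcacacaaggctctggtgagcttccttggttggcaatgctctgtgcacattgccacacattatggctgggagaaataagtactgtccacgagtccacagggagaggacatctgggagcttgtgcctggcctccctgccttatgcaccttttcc

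In the BRINP2 window the TEAD and RUNX letters lie side by side, and in the SSTR4 window AP-1 and TEAD share letters and RUNX stands upstream.

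The late step was small for most regions. Of the shared regions, 88.2% lay within 0.5 of the centre, the SD was 0.35 for distal and 0.29 for proximal regions, and the extremes were −2.21 and 2.57. The spread narrowed with the level, from an SD of 0.47 where the geometric mean AUC was 200 to 400 down to 0.10 above 3200. No region above 3200 was called and only 4 opened ones lay between 1600 and 3200, hence the changes described here are changes of weak and middling sites. Near the thresholds, 387 opened regions lay at 1 to 1.1 and 552 uncalled ones at 0.9 to 1, and the corresponding counts on the closing side were 195 and 293.

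Opening was a distal event more than closing was. Among opened regions 78.9% were distal, and among 72 h only regions 79.6%, compared with 65.4% of all merged regions. Among closed regions 61.4% were distal and among 24 h only regions 66.7%. The share of late-opened regions was 0.776% where a protein-coding TSS lay inside the region (119 of 15336) and 11.5% beyond 300 kb (926 of 8042). The late-closed share was lowest in the same class of regions with a TSS inside, at 2.45% (376 of 15336), was highest, at 14.6%, among regions that end within 1 kb of a TSS without covering it (1005 of 6889), and was 7.22% beyond 300 kb. The median of the higher AUC was 3175 where a TSS lay inside and 632 in the next class, and the part of this level in the shares was not tested.

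Base composition moved with the direction. Of distal regions whose summit window had under 35% GC, 20.4% were late-opened (95% Wilson interval 19.1 to 21.8), and the share was lower in each next bin of 5% down to 1.5% at 65% GC or more (1.01 to 2.23). Late-closed shares ran from 6.86% in the lowest bin to 10.2% at 60 to 65% GC. These intervals, like all others given here, cover counting error only, and neighbouring regions are not independent. The median GC content was 42.3% for distal opened and 72 h only regions, 46.8% for distal stable regions, 47.3% for 24 h only and 50.7% for closed regions. The median centred log2 of distal regions was 0.05 against 0 for proximal ones, a gap that came to 0.02 when proximal regions were weighted to the GC content of the distal ones. The part of base composition in the result was not tested.

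The regions that opened most strongly lay between genes or in introns. The first was an intergenic region 26110 bp from BRINP2, a gene of neural cells, on chr1:177282970-177283581. It had no peak in solvent or at 6 h, an AUC of 218 at 24 h and 1198 at 72 h, a centred log2 of 2.57 or 5.95-fold. A region 9712 bp from RGS18, a brake on G protein signalling in blood cells, went from 412 to 2185 (2.52), again without an earlier peak. AOAH, whose enzyme inactivates bacterial lipopolysaccharide, had a region 60392 bp away at 249 and 1304 (2.50). Of the 15 regions with the highest ratio among those with an AUC of at least 1000 in either list, 13 were distal, 7 intronic and 8 intergenic. A peak was already there at 6 h in 4 and in solvent in 1.

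Among the regions inside genes, an intron of COL12A1, encoding a collagen that decorates fibrils, held a region (chr6:75195944-75196713) with no solvent peak and an AUC of 269 at 6 h, 388 at 24 h and 1568 at 72 h. Its centred log2 was 2.13, and its summit window holds an AP-1 motif. A region in an intron of DAAM1, a formin that nucleates actin filaments, stood at 313, 238 and 1024 at 6, 24 and 72 h. An intron of PRR5L, whose product binds the mTORC2 kinase complex, held one at 276 and 1111 (chr11:36354618-36355195, 2.12) with no earlier peak. The region nearest to BOP1, a ribosome assembly factor, was unlike the others. It was 4533 bp wide, had 62.2% GC, and had an AUC of 3781 in solvent and 2765 at 6 h before 1195 at 24 h and 5146 at 72 h, so it was low at 24 h rather than new at 72 h. The other members ran from 1.85 near ACTBL2 to 2.42 near SQOR, with WDR64, FAR2, TMEM241, KLHL38, LDB2 and PRLHR between them. RUNX letters stood in the summit windows of 5 of the 15, TEAD in 4 and AP-1 in 3.

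The strongest peaks seen at 72 h only had no peak in any of the other 3 lists, in 10 of 10 regions. GSDMC, encoding a gasdermin, had an intergenic one 27054 bp away with an AUC of 1169.7. An intron of DNER, a Notch ligand, held one of 1168 on chr2:229492022-229492558, and one 112908 bp from the somatostatin receptor gene SSTR4 reached 973. An intron of ANXA5, encoding a phospholipid-binding annexin, held one of 898. The others, with 899 to 1025, lay nearest to FAM114A2, GNAI1, GHITM, MACROH2A1, SLC6A15 and ARHGAP10. Across the whole class such peaks were weak, with a median AUC of 261 over the 6916 regions and 715 at 400 or more, so most lay just above the AUC of 200 that the authors required.

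The regions that closed most mostly had a peak without TGFβ1 too. Of the 15 with the lowest ratio, 13 had a solvent peak, 15 had a peak at 6 h and 6 were proximal. Their choice asked for an AUC of at least 1000, which they reached at 24 h, so earlier peaks do not set them apart. Distal stable regions weighted to the 24 h AUC of all distal closed regions had a solvent peak in 69.6% and a 6 h peak in 94.5%. The lowest ratio belonged to an intergenic region 6889 bp from ANKRD62 (chr18:12086177-12086954). From an AUC of 2079 in solvent and 1918 at 6 h it came to 1288 at 24 h and to 257 at 72 h, a centred log2 of −2.21. PKP1, encoding the desmosomal protein plakophilin 1, had a region 5675 bp away (chr1:201276921-201277777). It stood at 228, 1176, 1377 and 318 in solvent and at 6, 24 and 72 h (−2.00), so it gained its peak strength early and lost it late. An intron of TNS1, whose product tensin links integrins to actin, had the same course without a solvent peak, with 701 at 6 h, 1857 at 24 h and 472 at 72 h (−1.86). Its window holds an AP-1 motif.

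Some regions of the closing set were side peaks of strong promoters. The closed region at MYH10, the gene of a non-muscle myosin heavy chain, went from 1109 to 301 (−1.77), while the next region 138 bp away went from 6930 to 6551. At CSNK1A1, encoding casein kinase 1 alpha, the closed region went from 1069 to 305 and its neighbour 182 bp away from 5590 to 5320. RTF1, a transcription elongation factor gene, and the region nearest to ADAMTSL4, inside MCL1, also had a neighbour within 200 bp. Where an earlier peak was wider than the region its whole AUC was counted, which gave MYH10 8299.9 and RTF1 3281 at 6 h. The remaining members, nearest to AP3M2, MRFAP1, SLC16A1, DGLUCY, TNP1, AFDN, SIPA1L3 and RHCG, lay between −1.86 and −1.46. SLC16A1 is a lactate transporter gene and AFDN encodes a protein of adherens junctions. Their regions stood at 1279 and 350.2 and at 1424 and 458 at 24 and 72 h.

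Peaks seen at 24 h only were, among the 10 of highest AUC at 24 h, present at 6 h in 10 and in solvent in 8. The first was 6893 bp from ENSG00000188897, with an AUC of 1343 in solvent, 1645 at 6 h and 1204 at 24 h. An intron of SDHB, a subunit of succinate dehydrogenase, lost a peak of 609, 1033 and 932 at the same times. A peak 3734 bp from SIN3B, a corepressor gene, had 572, 662 and 793. A peak inside LINC00824, 689014 bp from MYC, the growth-promoting transcription factor gene, had 396, 728 and 866. The others were nearest to ADM2, VSIG10L2, AQP7B, LRR1, VPS37D and RTP1, and 6 of the 10 were proximal. AP-1 letters stood in the summit windows of 2 of the 10 and RUNX letters in none. The class was as weak as its 72 h counterpart, with a median AUC of 256 and 642 of 9209 regions at 400 or more.

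The AUC takes in both the width and the height of a peak, so a call on it largely sets the direction of both. Opened regions had a median covered width of 255 bp at 24 h and 367 bp at 72 h. Their median summit −log10 p was 6.02 and 7.48, higher at 72 h in 1250 of 1254. Closed regions went from 425 to 260 bp and from 7.50 to 5.97, with a higher summit at 72 h in 1 of 479. When the AUC was divided by the covered width, 294 of the 1254 opened and 89 of the 479 closed regions still passed the threshold, while 1166 and 411 kept their direction.

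Most opened regions had no peak before 24 h. Most closed ones had one, at shares near those of stable regions of the same AUC at 24 h. Of the 989 distal opened regions 13.0% had a peak in solvent and 36.8% at 6 h, and of the 294 distal closed regions 66.7% and 93.5%. Opened regions are by their definition low at 24 h, with a median AUC of 279.6, and closed ones high, with 669, so the shares were read against stable regions of the same AUC at 24 h. These gave 24.97% and 59.6% for the opened regions and 69.6% and 94.5% for the closed ones. Weighting to the AUC at 72 h gave 68.8% and 92.0% for the opened and 28.6% and 65.9% for the closed regions. The 5504 distal 72 h only regions had a solvent peak in 3.40% and a 6 h peak in 13.0%, and the 6143 distal 24 h only regions in 16.7% and 47.8%. For the 24 h only regions, stable regions of like AUC in the higher list gave 16.1% and 50.3%. Having no peak at 24 h chose the 72 h only regions, so their shares are given without a comparison. Counting all places, 60.1% of opened and 84.4% of 72 h only regions had a peak in neither earlier list. The weighting was added after the data were seen.

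Regions were then counted per gene over 17126 genes, as late-opened minus late-closed regions, a net number that ran from −9 to 19. It is a plain count, so genes with many regions can reach larger numbers, and the median gene had 4 regions. The ranking was not adjusted for the number of regions or their GC content, and the part of either in it was not tested. Regions with a short gap between them counted apart, so a widened site can count more than once. The same ratios set the ranking and, in part, how many shared regions of a gene lay above 0. That number is therefore a description and no separate support. Over all shared regions 56.0% lay above 0, and over distal ones 59.4%. TENM2, encoding a teneurin of cell-cell contacts, was first at 19. Of its 116 regions, 101 had a peak at 24 h and 115 at 72 h, with 5 opened, 15 seen at 72 h only and 1 at 24 h only, and 18 of the 20 late-opened regions had no earlier peak. AP-1 letters stood in 11 of these 20 windows. The strongest, in an intron, went from 276 to 648 (1.34). When regions were assigned to the nearest gene of any type, TENM2 came to 0.

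FN1, the gene of fibronectin, was next with a net of 13 and lies on chr2:215360440-215436073. It had 41 regions, 29 with a peak at 24 h and 40 at 72 h. Of these, 2 were opened, 12 seen at 72 h only and 1 at 24 h only, and 13 of the 14 late-opened regions had no peak in solvent or at 6 h. The new peaks were weak, from 206 to 492, and stood on both sides of the start. Within and just beyond the gene body there were 7 of them, 10.1 to 78.7 kb downstream. Upstream, the opened regions 119 and 162 kb from the start went from 362 to 692 and from 305 to 607. The region over the promoter had 882 in solvent and 2782 at 6 h, then 3957 at 24 h and 4268 at 72 h, so its main gain came before the late step, in which its centred log2 was 0.22. Of the 28 shared regions of FN1, 26 had a ratio above 0, compared with 56.0% of all shared regions, and their median was 0.27. The net number remained above 0 with the nearest gene of any type, at 7, and once peaks below an AUC of 400 were dropped, at 5.

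Further genes with a high net number followed. LPP, encoding a focal adhesion protein, had 12, and 39 of its 48 shared regions had a ratio above 0. An intronic region of LPP went from 238 to 765 (1.80). CDH9 and PCDH9, cadherin genes, had 11 and 10, and FLRT2 and ADGRL2, encoding a pair of adhesion proteins, 10 and 9. DGKI, a diacylglycerol kinase gene, had 9, with 32 of its 32 regions bearing a peak at 72 h and 26 at 24 h. ETS1, a transcription factor gene, HAS2, encoding a hyaluronan synthase, PTPRC, encoding CD45, TNFAIP3, an inhibitor of NF-κB signalling, BRINP3 and CDKAL1 had 8 each. TNFAIP3 had 7 regions seen at 72 h only and 1 opened, from 723 to 1544 (1.21), and none late-closed. Its 72 h only regions chr6:137763941-137764177 and chr6:137765095-137765298 flank the opened one, chr6:137764334-137764940, so a single site may be counted more than once. The other gene with 13 was GSDMC. With peaks of at least 400 all 15 stayed above 0 but most at much lower numbers, TENM2 at 3, GSDMC, CDH9, HAS2 and CDKAL1 at 2, and LPP at 5. With the nearest gene of any type 11 stayed above 0, among them PCDH9 and ETS1 at 1 and CDH9 at 2, while TENM2, FLRT2, ADGRL2 and HAS2 came to 0.

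At the other end, ZMIZ1, a coactivator gene, and KHDRBS3, encoding an RNA-binding protein, had −9. Of the 71 regions of ZMIZ1, 69 had a peak at 24 h and 63 at 72 h, and 18 of 61 shared regions had a ratio above 0. The largest of its 3 closed regions, in an intron of ZMIZ1-AS1, stood at 354, 570.5, 694 and 236 in solvent and at 6, 24 and 72 h. GSE1 had −8, all of it regions seen at 24 h only inside the gene, 7 of which had a 6 h peak. MN1, PPARGC1A, the gene of the mitochondrial coactivator PGC-1α, and ZNF281 had −7.

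The Iroquois homeobox genes IRX4 and IRX2, neighbours on chromosome 5 that encode transcription factors of patterning, both had −6. Only 4 of the 22 shared regions of IRX4 had a ratio above 0 and their median was −0.18. Over its start the region went from 5671 to 4479 (−0.23), and the closed regions 32.2, 271 and 321 kb upstream went from 725 to 316, from 762 to 299 and from 455 to 207. NUAK1, encoding an AMPK-related kinase, had −6 with 7 of 22 shared regions above 0 and a median of −0.14. ZBTB7C, BAHCC1, TSPAN9, MANEA, LGALSL and ERGIC1 completed the set at −6. With peaks of at least 400, 11 of the 15 stayed below 0, MN1, TSPAN9 and MANEA came to 0 and PPARGC1A turned to 2, and with the nearest gene of any type 11 stayed below 0 while IRX4, NUAK1, MN1 and MANEA came to 0.

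**Figure D1:**
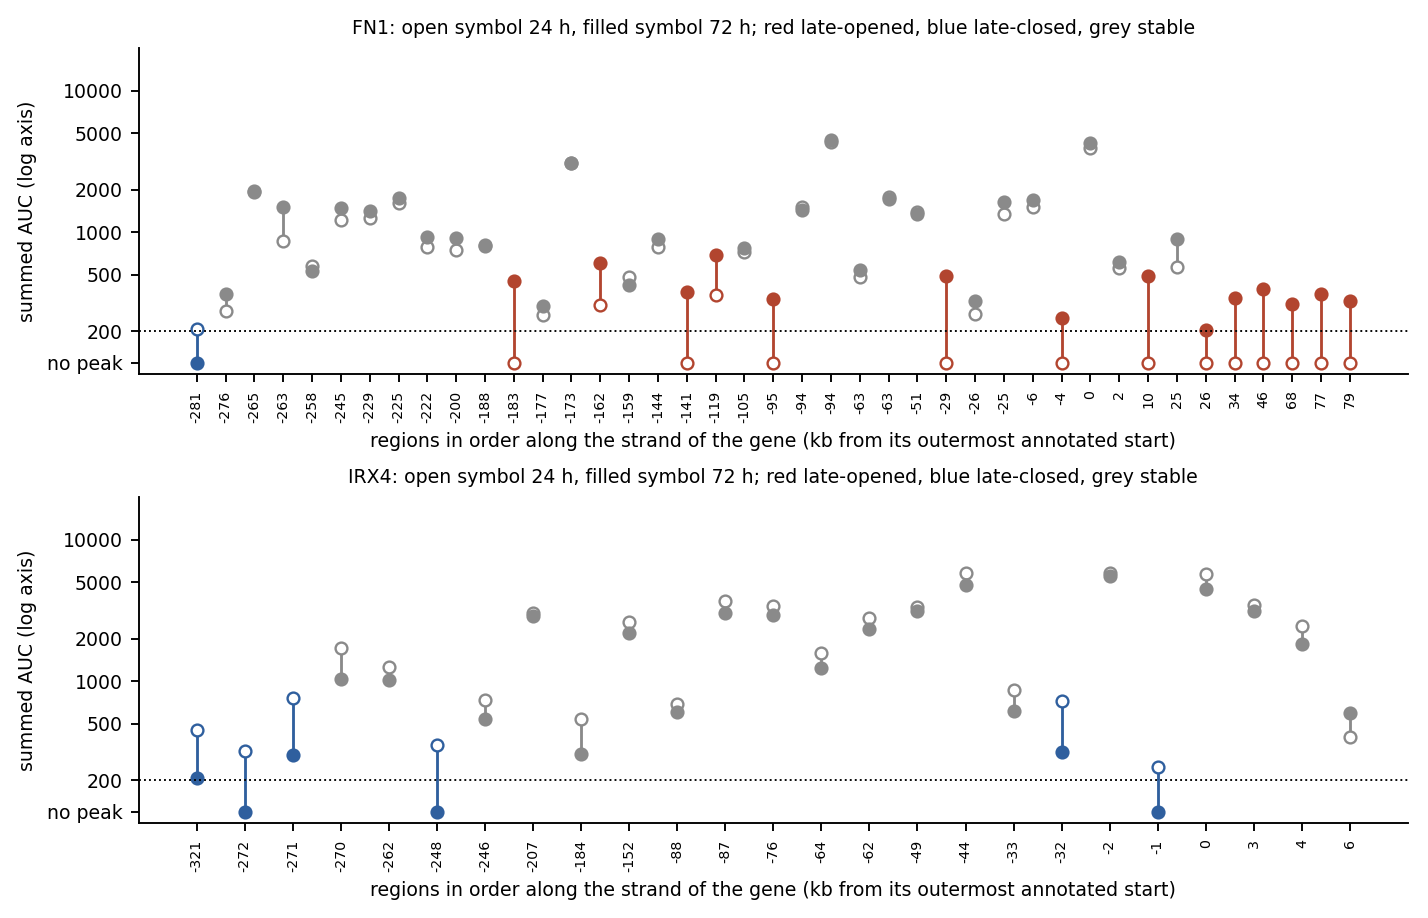
Summed AUC on a log axis at 24 h (open symbols) and 72 h (filled symbols) in the 41 regions of FN1 and the 25 regions of IRX4, in order along the strand of the gene and labelled with the distance in kb from its outermost annotated start. Red marks late-opened, blue late-closed and grey stable regions, and the dotted line the authors' minimum of 200. FN1 has 14 red and 1 blue region, IRX4 none and 6.

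Among 12 gene lists, that of extracellular matrix (ECM) and matricellular genes had the highest share of late-opened regions. It was 11.8%, 63 of 534 regions (95% Wilson interval 9.33 to 14.8), against 6.57% of all regions and 7.24% of all regions of like GC content and place. Late-closed regions made up 5.81% of the list, against 8.06% of like regions, and its median centred log2 was 0.12, beside 0.03 over all shared regions. Without FN1 the late-opened share was 9.94%, 49 of 493 regions. Counts of single genes in this and the other lists are plain counts, not adjusted for the number of regions of the gene. Over all regions, 6.57% were late-opened and 7.79% late-closed. POSTN, encoding periostin, had 7 late-opened and 1 late-closed region, all 7 without an earlier peak and none stronger than 351, and its promoter, here the strongest region within 1 kb of a TSS of the gene, bore no peak at either time. THBS1, the thrombospondin 1 gene, had 8 and 4, FBN2 and FBN1, the fibrillin genes, 6 and 3 against none, and CCN1, whose product is a matricellular ligand of integrins, 4 against none. TNC and TGFBI, encoding tenascin C and a TGFβ-induced matrix protein, had 4 and 3 each. On the closing side stood LTBP2 with 1 and 5, and COL4A2, a basement membrane collagen gene, with 1 and 3. CCN2, another matricellular gene, had 2 and 1, and LTBP1 none and 2. The promoter of COL1A2, a fibrillar collagen gene, went from 926 to 1380 (0.69) with 2 late-opened regions.

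Matrix proteases and their inhibitors had 8.0% late-opened regions (interval 4.83 to 13.0) and 5.14% late-closed ones, against 6.15% and 8.14% of like regions. ADAM12, ADAM19, ADAMTS1, ADAMTS6 and MMP13 had 2 or 3 late-opened regions each and no late-closed one. The promoter of ADAM12, a metalloprotease gene, went from 757 to 1124 (0.69). The inhibitor genes TIMP2 and TIMP3 had the opposite count, no late-opened and 3 late-closed regions each, and the TIMP3 promoter went from 2102 to 1558 (−0.32).

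Adhesion and cytoskeleton genes of mesenchymal cells had 31 late-opened and 31 late-closed of 424 regions, 7.31% each, near the 7.05% and 8.04% of like regions. CDH2, the N-cadherin gene, had 7 and 3, PALLD, an actin bundling protein gene, 6 and 4, and CDH11 4 and 3. MYH9, ITGA2 and ITGB6, genes of non-muscle myosin and integrins, had 3 and 0, 3 and 1, and 2 and 0. TPM1, ITGA5 and ACTN1, genes of a tropomyosin, the fibronectin receptor and an actinin, had 0, 1 and 1 late-opened against 3 late-closed regions each.

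Epithelial adhesion genes had 5.26% late-opened and 6.52% late-closed regions, against 6.38% and 8.04% of like regions. PKP1 had 3 late-closed regions and no late-opened one, its promoter went from 586 to 710.5 (0.39), and the tight junction genes CLDN4 and CLDN7 and the hemidesmosomal integrin gene ITGB4 had 2 and none each. LAMA3 and DSC3, genes of a laminin chain and a desmocollin, counted the other way with 5 and 2 and with 4 and 1. ITGA6, the partner of ITGB4, had 2 and 3. Epithelial identity genes had 4.94% and 6.17%, against 6.60% and 7.93% of like regions. KLF4, an epithelial transcription factor gene, had 3 opened regions 217 to 493 kb upstream and 1 late-closed, KLF5 1 and 4, and TFAP2A 6 and 5. GRHL3, RBM47 and EHF had 1 or 2 late-opened and 2 or 3 late-closed regions. Keratin genes had 6.32% and 4.21% of 95 regions, where like regions gave 2.86% and 8.10%, and only KRT8 had 2 late-closed regions.

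The genes of the TGFβ pathway had 6.36% late-opened and 6.14% late-closed regions, against 6.56% and 7.88% of like regions. SMURF2, a ubiquitin ligase that restrains the pathway, had 7 and 1 of 23 regions, 5 of the 7 without an earlier peak. TGFBR2, encoding the ligand-binding receptor, had 5 and 2 of 44. SMAD3 and SMAD2, the signal carriers, had 3 and 1 and 2 and 0, and the ligand gene TGFB2 5 and 4. SMAD7 and SMAD6, the inhibitory SMAD genes, had none and 3 and none and 2, SKI, a corepressor gene, 1 and 3, and TGFBR3, a coreceptor gene, none and 2. The SMAD7 promoter stood at 6226 and 5561 (−0.05).

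Transcription factor genes of EMT had 25 late-opened and 25 late-closed of 406 regions, 6.16% each, against 7.75% and 8.01% of like regions. RUNX1 had 8 and 3 of 92 regions and ZEB2 4 and 2. TCF4 had none and 5 of 37, RUNX2 none and 3, and SNAI1 none and 3 of 14. SOX9 had 8 and 7. PRRX1 gained 2 regions while its promoter went from 808 to 391 (−0.93). No promoter with a peak in both lists passed 1 or −1 in any of the 12 gene lists, and the lowest ratio, singled out after its value was seen, was that of OVOL2, a repressor gene of epithelial identity, at 670.5, 928, 891 and 419 in solvent and at 6, 24 and 72 h (−0.97). The AP-1 genes had 4.73% and 6.08%, against 4.91% and 7.67% of like regions, with JUN and ATF3 at 2 and 2 and JDP2 at none and 2. Cell cycle genes had 5.86% and 9.77%, against 6.47% and 7.67% of like regions. MYC was nearest to 103 of the 256 regions of this list, to 7 of the 25 late-closed ones and to 3 late-opened ones. CDK6 had 3 and 5, CCND1 none and 2, MKI67 2 and 2, and E2F2 2 and none. Epithelial cytokine genes had 8.11% and 5.95%, against 7.36% and 8.11% of like regions. CXCL1, a neutrophil chemoattractant gene, had 3 and 1 and a promoter at 4808 and 5487 (0.30), IL1B, the interleukin-1β gene, 2 and 1 and 2144 and 2534 (0.35), AREG 2 and none and TGFA none and 2. Ribosomal protein genes, taken as a reference, had 3.61% and 10.5%, against 4.74% and 8.01% of like regions. Their 75 shared promoter regions had a median of −0.03, an SD of 0.13 and none past 1.

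The genes that the study follows as markers and regulators had small net numbers in the late step, apart from FN1. CDH2 had a net of 4 and a promoter at 5955 and 6141 (0.16), and its net number turned to −2 when only peaks of at least 400 were kept. CDH1, the E-cadherin gene, had 2 of 14 regions at 24 h only, and its promoter stood at 1414, 1943, 1655 and 1233 in solvent and at 6, 24 and 72 h (−0.31 for the late step). EPCAM, encoding an epithelial adhesion molecule, had 16 stable regions, with a promoter at 2140.4 and 1823 (−0.12). RBM47, an RNA-binding protein gene, came to −1 with a promoter at 2804 and 2828 (0.13). SNAI1, the gene of SNAIL1, came to −3 (promoter 1932 and 1538, −0.22), SNAI2 to 0 (6127 and 5984, 0.08) and ZEB1 to −1 (5360.1 and 4886, −0.02). JUN had a net of 0 and 12470 and 11395 at its promoter (−0.02), and JUNB −1 with 10582 and 8674 (−0.17). KANK4 had −1, MYO7B −2 with a promoter peak of 240.1 at 24 h and none at 72 h, and PRR5L −2 in spite of its strongly opened intronic region. At peaks of at least 400 the PRR5L number turned to 1.

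The sequence of the summit windows differed between opening and closing. RUNX letters stood in 17.6% of distal opened and 12.2% of distal 72 h only windows, against 7.65% and 5.94% of stable ones weighted to the same AUC and GC content. In closed and 24 h only windows the shares were 3.40% and 4.48%, against 6.01% and 5.64%. Of all merged regions 6.53% hold these letters. TEAD letters, in 16% of all regions, stood in 27.4% of opened and 20.0% of 72 h only windows, against 17.4% and 16.4%, and in 11.9% of closed and 14.7% of 24 h only windows, against 16.5% and 16.3%. When whole peaks were searched in place of windows, the TEAD share of 72 h only regions turned to a difference of -5.92 percentage points from unweighted stable regions. Both motifs together stood in 5.56% of opened, 1.30% of stable and 0.680% of closed distal windows, the last being 2 of 294. Opened windows held each motif more often singly and closed ones less often, and pairing beyond that was not tested.

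AP-1 letters were rarer in opened, closed and 24 h only windows than in the weighted stable ones, most so in the closed and 24 h only windows. They stood in 39.7% of distal stable windows and in 32.7% of all regions. Opened and 72 h only windows held them in 35.2% and 37.2%, against 41.5% and 36.6% of the weighted stable windows, whereas closed windows held them in 16% and 24 h only windows in 22.2%, against 32.9% and 33.2%. RUNX and AP-1 letters occurred together in 48 of 989 opened windows (4.85%) and in 1650 of 68378 stable ones (2.41%). Among 294 closed windows none held both, which allows a share of up to 1.02% (3 of 294). Opened windows held more RUNX letters singly, and closed windows held fewer of each motif. Pairing beyond the single shares was not tested, and the share of the pair was not weighted to AUC or GC content. At least 1 of the 3 motifs was found in 63.4% of opened and 28.9% of closed distal windows, and in 54.9% of stable ones.

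Of the other motifs, GATA letters (AGATAA, in 7.76% of all regions) stood in 14.2% of opened and 3.40% of closed windows, against 11.2% and 6.68% of the weighted stable windows. KLF letters (GGGTGTGG or GGGCGTGG, 4.70%) ran the other way, with 1.42% and 8.50% against 2.68% and 5.01%. FOX letters (TGTTTAC, 3.48%) stood in 1.92% of opened and 5.10% of closed windows, against 4.67% and 3.20%. The E-box CACCTG (17.7%), the letters that SNAIL and ZEB proteins are known to bind, stood in 14.3% of opened and 21.4% of closed windows, near the weighted 13.6% and 22.1%. SMAD letters (GTCTAGAC or GTCTGGAC, 0.964%) were rare, in 2 of 989 opened and 5 of 294 closed windows. A match is a description of letters and not of a bound factor, and both strands were searched.

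Markers of the labelled cell type were looked up at both times. All 6 basal mammary markers had a peak within 1 kb of a TSS at 24 h and at 72 h, from 747 for TP63 to 84215 for LAMB3 in the summed AUC at 24 h. Luminal markers had 4 of 4 at 24 h and 3 of 4 at 72 h, since the peak of 393 at ESR1, the oestrogen receptor gene, was listed at 24 h only. Fibroblast markers had 3 of 5 at both times, with none at DCN or LUM, endothelial markers 1 of 3, blood markers 1 of 3 and liver markers 0 of 2. The summed AUC of the blood marker PTPRC, which is among the genes of high net number, was 799 at 24 h and 1059 at 72 h, while CD3E and SPI1 had no peak.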

How the data were processed

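ATAC-seq (Omni-ATAC) had been performed on 2 replicates each of solvent, 6 h, 24 h and 72 h TGFβ1. Per the processing notes and the methods, the authors used Trimmomatic 0.38, Bowtie2 2.4.5 (GRCh38), Picard, SAMtools 1.4.1 and Genrich 0.5, called peaks on both replicates together, and removed blacklisted regions and peaks with an AUC below 200. The deposited signal column is this AUC, and the deposited −log10 p column gives the summit. Depth and replicate values are unknown, and no paired or replicate analysis could be made.

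Regions were built, centred and called as described, with GENCODE 44 TSSs of any gene for place and protein-coding TSSs for names. Motifs were searched in summit windows of the list with the higher AUC. Python 3.11.15, numpy 2.4.6, pandas 2.3.3, scipy 1.17.1, pysam 0.24.0 and matplotlib 3.10.9 were used, and the scripts were tested on simulated data. Named were the 15 highest and 15 lowest ratios with an AUC of at least 1000 in the higher list, the 10 strongest one-list regions of each time, the 15 genes of highest and lowest net number, list members with 2 late regions of one direction or a promoter past 1, and the genes the study discusses. Members and lists were chosen with earlier results of these data known. A gene of the last set and some list members are not reported here. Alternatives concerned peak strength, list length, overlap, measure, centring, place, threshold and gene assignment. Weightings by GC content and AUC were added after the data were seen.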

Additional observations from a re-analysis of the deposited data

How the results depend on the processing

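Once peaks below an AUC of 400 were dropped, 291 regions opened and 87 closed, and 68.3% of late-closed regions were distal. Requiring an overlap of 50% of both peaks gave 10726 regions at 72 h only and distal shares of 70.6% (late-opened) and 64.5% (late-closed). AUC per base gave 452 opened and 223 closed and a distal minus proximal gap in median log2 of 0.028, the largest summit −log10 p 0, 0 and 0.0133, no centring 813 and 825, and a 1.5-fold threshold 5799 and 3390. Calling proximal within 1 kb gave distal shares of 90.9% and 81.1%, and using protein-coding TSSs 88.2% and 75.1% with a gap of 0.0596. Weighting proximal regions to the distal GC content gave a gap of 0.0222, and weighting stable regions to AUC and GC content put AP-1 in closed minus stable windows at −16.9 percentage points. Reversed were AP-1 in 72 h only minus stable windows (0.519, weighted), TEAD in the same class when whole peaks were searched (−5.92), and at an AUC of at least 400 the net numbers of PPARGC1A (2), CDH2 (−2) and PRR5L (1). The cause of these shifts was not tested beyond what each setting changes. The other 68 values of the main comparisons stayed within their limits. Among values for single genes, gene lists and motifs of one-list regions, 84 stayed within their limits, 87 moved beyond them and 5 are the reversals above. Leaving out a replicate was not possible, and no paired analysis was possible because each list was called on both replicates together. Depth is unknown, so a one-list region near the minimum AUC may lie just below it in the other list.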

Other observations

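Late regions were not spread evenly over the 23 chromosomes, 22 autosomes and X. The late-opened share ran from 3.55% on chromosome 19 to 8.11% on chromosome 13, and across chromosomes it had a Pearson r of −0.93 and a Spearman rho of −0.94 with the median GC content of the summit windows (n = 23, all from the same pair of lists, given as a description). The late-closed share ran from 6.89% on chromosome 1 to 11.1% on X (358 of 3234 regions), with r = 0.28 and rho = 0.29, and the late-opened share of X was 6.74%.

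GATA3, a luminal transcription factor gene, had 6 regions with a peak within 1 kb of a TSS at 24 h and 4 at 72 h, with a summed AUC of 7056 and 5519.96.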
